A study of Mus musculus with 6 samples.

Results

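The genes described here make cholesterol and fatty acids or control how much of them a cell makes, takes up and exports. The list held 35 genes, chosen for their roles in these pathways with earlier results of these data known. Of these, 33 had a probe set in the array annotation, against 18193 genes measured in all. Acat2 and Soat1 were not analysed here. Each gene was read at its brightest probe set over the 6 arrays, and Sc4mol is the older symbol of Msmo1. RNA came from splenic T cell preparations of male C57BL/6 mice aged 10 weeks, each preparation from 1 spleen by negative selection, in which unwanted cells are removed and whatever is left is kept. Mice that lack miR-142, a microRNA of blood cells (KO), gave 3 of the arrays, and their wild-type littermates (WT) gave the other 3. The labels give the KO as a loss of miR-142 in the mouse and name no cell-specific driver, so nothing in them limits it to T cells. Each value is a log2 intensity from an Affymetrix 1-colour array, so a difference of 1 is a 2-fold change in intensity on that scale.

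Cholesterol is built from acetyl-CoA. HMG-CoA is reduced to mevalonate, mevalonate is turned into isoprenoid units, these are joined to squalene, and squalene is closed and trimmed to the sterol. The same acetyl-CoA feeds fatty acid synthesis, whose products are then lengthened by elongases and given double bonds by desaturases. The transcription factors SREBP-1 and SREBP-2, encoded by Srebf1 and Srebf2, switch on most of these genes. They are escorted out of the endoplasmic reticulum by SCAP when sterols are scarce and held there by the INSIG proteins when sterols are plentiful, while liver X receptors respond to oxysterols and switch on the exporters Abca1 and Abcg1. T cells raise sterol and fatty acid synthesis when they are activated and begin to divide, and dividing precursors of red cells and myeloid cells also make much membrane.

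Markers of cell types differed between the genotypes, and these values stand beside every result below. All 10 measured T cell markers, among them the CD3 chains Cd3d, Cd3e and Cd3g, were bright in WT and fell in KO. Their mean ranged from 12.33 to 12.36 in WT and from 9.57 to 10.98 in KO. Markers of neutrophils (11 of 12 rose, mean 6.26 to 7.30 in WT and 10.43 to 12.70 in KO), of mast cells, basophils and eosinophils (8 of 10, 5.59 to 5.76 and 9.38 to 9.88), of monocytes and macrophages (8 of 9, 6.07 to 6.37 and 8.90 to 9.58), of erythroid cells (7 of 7, 7.11 to 7.55 and 9.91 to 11.02) and of dividing cells (9 of 9, 8.68 to 8.82 and 10.71 to 11.19) were higher in KO. Of 7 measured B cell markers 0 passed the test in limma (1 at an unadjusted p below 0.05), with means of 6.45 to 6.80 in WT and 6.75 to 8.16 in KO. The host transcript listed as Mir142 fell 3.98-fold (limma adjusted p = 6.6e-05), and whether its probe set lies in the deleted part is not known. As a measure of RNA quality, Actb read 0.20 ± 0.03 (SD, n = 3) higher near its 3′ end than near its 5′ end in WT and 0.36 ± 0.04 higher in KO. The 18S control level was 9.47 to 9.66 in WT and lower on every KO array. KO replicate 1 had the lowest, 7.86 against 9.15 and 9.19 in the other KO arrays. The part of cell makeup and RNA quality in the differences of the lipid genes was not tested, and in such bulk samples fewer cells of a type and less RNA per cell cannot be told apart.

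**Figure D1:**
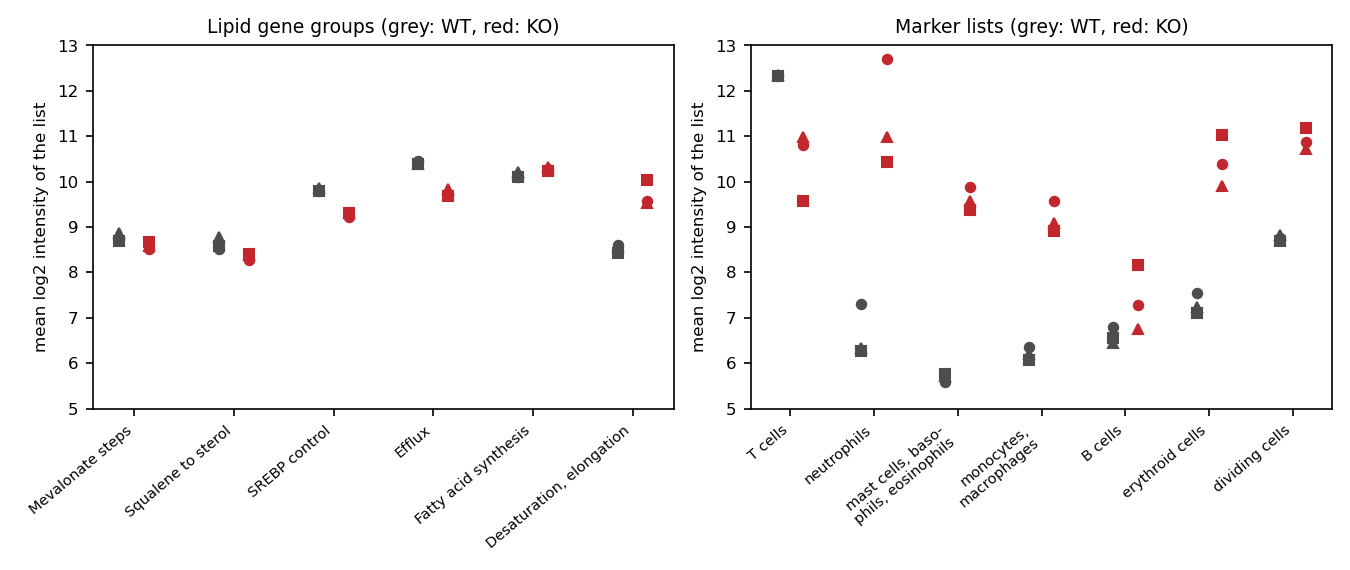
Mean log2 intensity of the 6 lipid gene groups (left) and of 7 marker lists (right) on each array. Grey symbols are WT, red symbols are KO, and circle, square and triangle are replicates 1, 2 and 3. Desaturation and elongation genes reached 10.05 in KO replicate 2, the array with the lowest T cell marker mean of 9.57.

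Of 17 measured steps of sterol synthesis 7 fell in KO and 2 rose, 4 of 5 genes of SREBP control fell, and the 4 desaturases among the members rose. Of the 33 measured genes 14 fell (42.4%), 7 rose (21.2%) and 12 did not pass the test, an adjusted p below 0.05 in limma over all probe sets. Over all genes measured 18.6% rose and 18.6% fell, so the share that rose was near the background, and the share that fell was above it. On 18 of the 33 genes every KO array lay below every WT array, and on 8 every KO array lay above, against 29.7% and 24.1% of all genes. The median difference (KO minus WT) was -0.22, and over all genes it was -0.06. The 14 falls were small, between 0.40 for Dhcr7 and 0.84 for Hmgcs1, while the rises reached 2.36 for Scd1. Scaling each array to its 18 hybridization control probe sets moved the median of all genes by 0.37 upwards. Under that scaling 12 members rose and 3 fell, against 42.8% and 7.22% of all genes. The members' median turned to 0.15, which was 0.16 below that of all genes. That distance equals the one in the values as deposited because the scaling moves every gene's difference by the same amount. Falls below are therefore falls relative to the bulk of genes on the array, and those of Hmgcs1, Mvd and Insig1 were also called under the control scaling, while the other 11 were not. All 7 rises were called under it, and so were rises of Pmvk, Idi1, Ebp, Fasn and Elovl6.

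**Figure D2:**
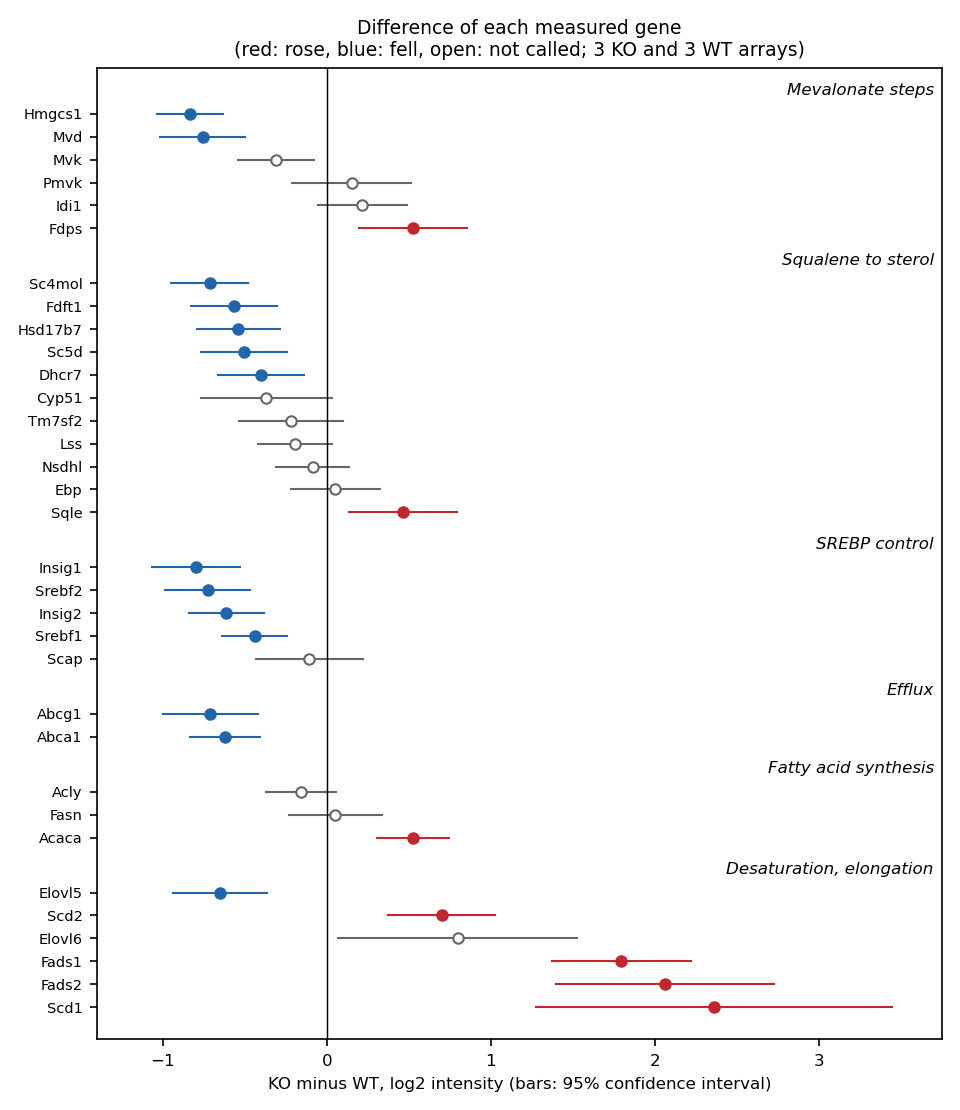
Difference between KO and WT (log2 intensity, horizontal axis) of each of the 33 measured genes, grouped by role. Points are differences, bars are 95% confidence intervals from limma with 3 arrays per genotype, and filled points passed the test. Blue points (14 genes) lie between -0.84 and -0.40 and red points (7 genes) between 0.46 and 2.36. Under scaling to the hybridization controls all points move to the right by 0.37.

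In the mevalonate part of the pathway, 2 of 6 measured genes fell and 1 rose. Hmgcs1, which makes HMG-CoA, had values of 10.73, 10.80 and 10.75 in WT and 9.94, 9.83 and 10.00 in KO. The KO arrays lay close together and well below the WT arrays, a 1.78-fold fall (-0.84 ± 0.09, SE, n = 3 per group, limma adjusted p = 0.00042). Its 4 other probe sets fell too, by 0.68 to 0.94. Mvd, the mevalonate diphosphate decarboxylase, stood at 7.67, 7.46 and 7.82 in WT and at 6.95, 6.83 and 6.90 in KO. No KO array reached the lowest WT array, and the gene fell 1.69-fold (-0.76 ± 0.11, limma adjusted p = 0.0020), with a second Mvd probe set falling by 0.61. Fdps, the farnesyl diphosphate synthase at the branch to sterols and prenyl groups, went the other way, from 9.73, 9.67 and 9.96 in WT to 10.08, 10.32 and 10.54 in KO. All its KO values were above the WT values, though KO replicate 1 was only just so, and Fdps rose 1.44-fold (0.53 ± 0.14, limma adjusted p = 0.027). Without WT replicate 1, WT replicate 2 or KO replicate 3 that call was lost, with adjusted p = 0.092, 0.098 and 0.075, and it was lost with the mean of its probe sets (0.26, adjusted p = 0.15). The kinases Mvk and Pmvk and the isomerase Idi1 did not pass the test. Mvk lay lower on every KO array (-0.31, 95% confidence interval -0.54 to -0.08, adjusted p = 0.052) and was called without KO replicate 2 (adjusted p = 0.028). Pmvk and Idi1 differed by 0.15 (-0.21 to 0.51) and 0.22 (-0.05 to 0.49).

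Hmgcs1, Insig1 and Mvd fell under all 16 alternative settings tried, and the bases before their gene starts are shown with those of Fads2, a desaturase that rose, to set members that moved in opposite directions side by side. Hmgcs1 was printed by rule and the other 3 were chosen after their values were seen. The sequences are the 250 bases upstream of each RefSeq start in GRCm38.p6, read 5′ to 3′ on the gene's strand: chr13:119690101-119690350 on the plus strand, chr5:28071162-28071411 on the plus strand, chr8:122443423-122443672 on the minus strand and chr19:10101504-10101753 on the minus strand. Capitals mark TCACNCCAC, a core form of the sterol response element that SREBPs bind, CCAAT, the box bound by NF-Y, and GGGCGG, the GC box bound by SP1, on either strand.
Hmgcs1: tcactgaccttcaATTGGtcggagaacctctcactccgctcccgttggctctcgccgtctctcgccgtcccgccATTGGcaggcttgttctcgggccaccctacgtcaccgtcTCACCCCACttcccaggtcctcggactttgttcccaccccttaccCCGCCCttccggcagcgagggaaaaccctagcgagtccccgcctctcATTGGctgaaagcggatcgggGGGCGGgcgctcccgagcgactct
Insig1: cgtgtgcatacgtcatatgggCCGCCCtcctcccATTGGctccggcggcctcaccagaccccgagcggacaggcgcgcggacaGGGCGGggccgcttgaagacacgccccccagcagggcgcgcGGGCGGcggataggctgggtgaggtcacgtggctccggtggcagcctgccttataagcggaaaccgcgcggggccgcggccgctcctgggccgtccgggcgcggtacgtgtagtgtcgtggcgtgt
Mvd: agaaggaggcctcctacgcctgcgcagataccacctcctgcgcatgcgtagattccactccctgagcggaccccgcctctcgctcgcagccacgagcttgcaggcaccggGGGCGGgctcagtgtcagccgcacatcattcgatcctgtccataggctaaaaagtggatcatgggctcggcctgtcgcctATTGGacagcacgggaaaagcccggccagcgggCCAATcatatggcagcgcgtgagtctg
Fads2: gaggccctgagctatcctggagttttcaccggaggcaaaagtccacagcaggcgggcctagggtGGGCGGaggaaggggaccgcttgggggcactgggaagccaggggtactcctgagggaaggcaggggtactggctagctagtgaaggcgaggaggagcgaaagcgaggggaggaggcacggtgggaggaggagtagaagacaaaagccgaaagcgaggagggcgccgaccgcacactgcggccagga
The Hmgcs1 stretch held 1 sterol response element core, TCACCCCAC from base 114, with 3 CCAAT and 2 GC boxes. Insig1 held 1 CCAAT and 3 GC boxes, Mvd 2 CCAAT boxes and 1 GC box, and Fads2 1 GC box and no CCAAT box.

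RefSeq promoter windows of 300 bases, which add 50 bases after the start, were found for 26 of the 33 measured genes. They gave 34 windows, since some genes have several starts. CCAAT was found in 64.7% of these windows and in 37.4% of all 32851 windows of the same length, GGGCGG in 73.5% and 35.7%, and TCACNCCAC in 2.94%, which is the Hmgcs1 window alone, and 1.24%. By gene, CCAAT was found for 41.1% of all genes, 11 of the 12 matched genes that fell, 0 of the 2 matched genes that rose (Acaca and Fads2) and 10 of the 12 that were not called. Abca1 was the gene that fell without it. Fdps, Sqle, Scd1, Scd2 and Fads1, which also rose, had no window, so the genes that rose are barely covered. A gene with several starts was counted if any of its windows matched. GGGCGG was found for 38.2% of all genes, 11 of the 12 that fell, 1 of the 2 that rose and 9 of the 12 that were not called. These are matches of letters and not measured binding.

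Between squalene and the finished sterol, 5 of 11 genes fell, 1 rose and 5 did not pass the test. Sc4mol (Msmo1), the methyl sterol oxidase, had values of 8.65, 8.77 and 8.84 in WT and 7.94, 8.004 and 8.18 in KO. The groups were clearly apart, and it fell 1.64-fold (-0.71 ± 0.10, SE, n = 3 per group, limma adjusted p = 0.0017). A dim second Sc4mol probe set did not pass the test (-0.22). Fdft1, the squalene synthase that commits farnesyl units to sterols, stood at 9.43, 9.57 and 9.78 in WT and at 9.10, 9.04 and 8.94 in KO. It fell 1.48-fold (-0.57 ± 0.11, limma adjusted p = 0.0079), and a second probe set fell by 0.41, while 2 dim ones did not pass the test (-0.34 and -0.22). Hsd17b7, the sterol 3-ketoreductase, was 7.15, 7.38 and 7.50 in WT and 6.76, 6.83 and 6.83 in KO, a fall of 0.54 ± 0.11 (limma adjusted p = 0.0085). Its 3 other probe sets did not pass the test (-0.24, -0.22 and -0.06). Sc5d, the lathosterol oxidase, went from 9.42, 9.40 and 9.67 in WT to 8.94, 8.91 and 9.12 in KO (-0.51 ± 0.11, limma adjusted p = 0.013), with groups that did not overlap. Its 2 other probe sets did not pass the test (-0.08 and 0.08), and with the mean of its probe sets the Sc5d call was lost. Dhcr7, which catalyses a last reduction to cholesterol, fell by 0.40 (limma adjusted p = 0.033).

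Sqle, the squalene epoxidase, a rate-limiting step that needs oxygen, was the gene of this stretch that rose. It lies outside the naming rule for values by array and was chosen after its values were seen. It stood at 8.34, 8.34 and 8.64 in WT and at 8.68, 9.12 and 8.91 in KO, so that KO replicate 1 was just above WT replicate 3 (0.46 ± 0.14, limma adjusted p = 0.044). The Sqle call was lost in 4 of 6 fits that left out 1 array (without WT replicate 1 or 2, or KO replicate 2 or 3, adjusted p of 0.14, 0.14, 0.090 and 0.10). It was also lost after repeated quantile normalization and after median centring (adjusted p = 0.056 and 0.052). The call of Dhcr7 was lost in 5 of the 6 fits, all but the one without KO replicate 2 (adjusted p of 0.057 to 0.098), and after median centring (adjusted p = 0.061). Of the genes that did not pass, Cyp51, the lanosterol demethylase, differed by -0.37 (-0.77 to 0.03), Tm7sf2 by -0.22, Lss by -0.19, Nsdhl by -0.09 and Ebp by 0.05 (-0.22 to 0.32). Cyp51 and Lss, the lanosterol synthase, were nevertheless lower on every KO array than on any WT array. Over all 17 measured steps from HMG-CoA to cholesterol, 7 fell, 2 rose and 8 were not called, with a median of -0.31. Under the control scaling 2 fell and 5 rose, against 7.22% and 42.8% of all genes, and the median was 0.06. Relative to the median of all genes, the median of the steps was -0.25 in both, a distance that this scaling cannot change.

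Of the 5 genes of SREBP control 4 fell and Scap was not called, and under the control scaling Insig1 alone was called. Insig1, a retention protein and itself an SREBP target, had values of 9.05, 8.87 and 9.26 in WT and 8.25, 8.21 and 8.33 in KO. It fell 1.74-fold (-0.80 ± 0.11, SE, n = 3 per group, limma adjusted p = 0.0019), with every KO array well under the lowest WT array. Srebf2, which encodes the SREBP that favours sterol genes, was 10.04, 9.99 and 9.87 in WT and 9.40, 9.06 and 9.26 in KO. It fell 1.66-fold (-0.73 ± 0.11, limma adjusted p = 0.0025). Its second probe set differed by -0.37 (adjusted p = 0.074). Srebf1, whose products favour fatty acid genes, fell less, from 10.58, 10.63 and 10.52 in WT to 10.06, 10.15 and 10.20 in KO (-0.44 ± 0.08, limma adjusted p = 0.0072).

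Insig2, a retention protein closely related to Insig1, was 8.89, 8.97 and 9.13 in WT and 8.29, 8.43 and 8.43 in KO, a fall of 0.61 ± 0.10 (SE, n = 3 per group, limma adjusted p = 0.0031). Its 2 other probe sets pointed the other way at 0.20 and 0.14 (adjusted p = 0.23 and 0.36), and with the mean of its probe sets the call was lost, so the sign of the Insig2 difference depends on the probe set. Scap, the escort protein, did not pass the test (-0.11, -0.43 to 0.22), with KO values of 10.11, 10.65 and 10.33 spread around the WT values of 10.41, 10.48 and 10.51. A dim Scap probe set fell by 0.45. Under the hybridization control scaling the calls of Srebf2, Srebf1 and Insig2 were lost (adjusted p = 0.066, 0.62 and 0.13), all with the sign kept.

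Both measured exporters fell, on arrays where T cell markers were lower as well. Abca1, which loads cholesterol and phospholipid onto apolipoproteins, stood at 10.27, 10.25 and 10.16 in WT and at 9.51, 9.71 and 9.59 in KO. The groups did not overlap and each was tight (-0.62 ± 0.09, SE, n = 3 per group, limma adjusted p = 0.0020). The other Abca1 probe sets, both dim, did not pass the test (-0.04 and -0.20). Abcg1, which passes cholesterol to high-density lipoprotein, was 10.66, 10.52 and 10.61 in WT and 9.91, 9.66 and 10.09 in KO. It fell 1.64-fold (-0.71 ± 0.12, limma adjusted p = 0.0045), lowest in KO replicate 2, and its second probe set fell by 0.91. With the control scaling Abca1 and Abcg1 differed by -0.26 and -0.34 at their brightest probe sets, and neither passed the test (limma adjusted p = 0.093 and 0.086).

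**Figure D3:**
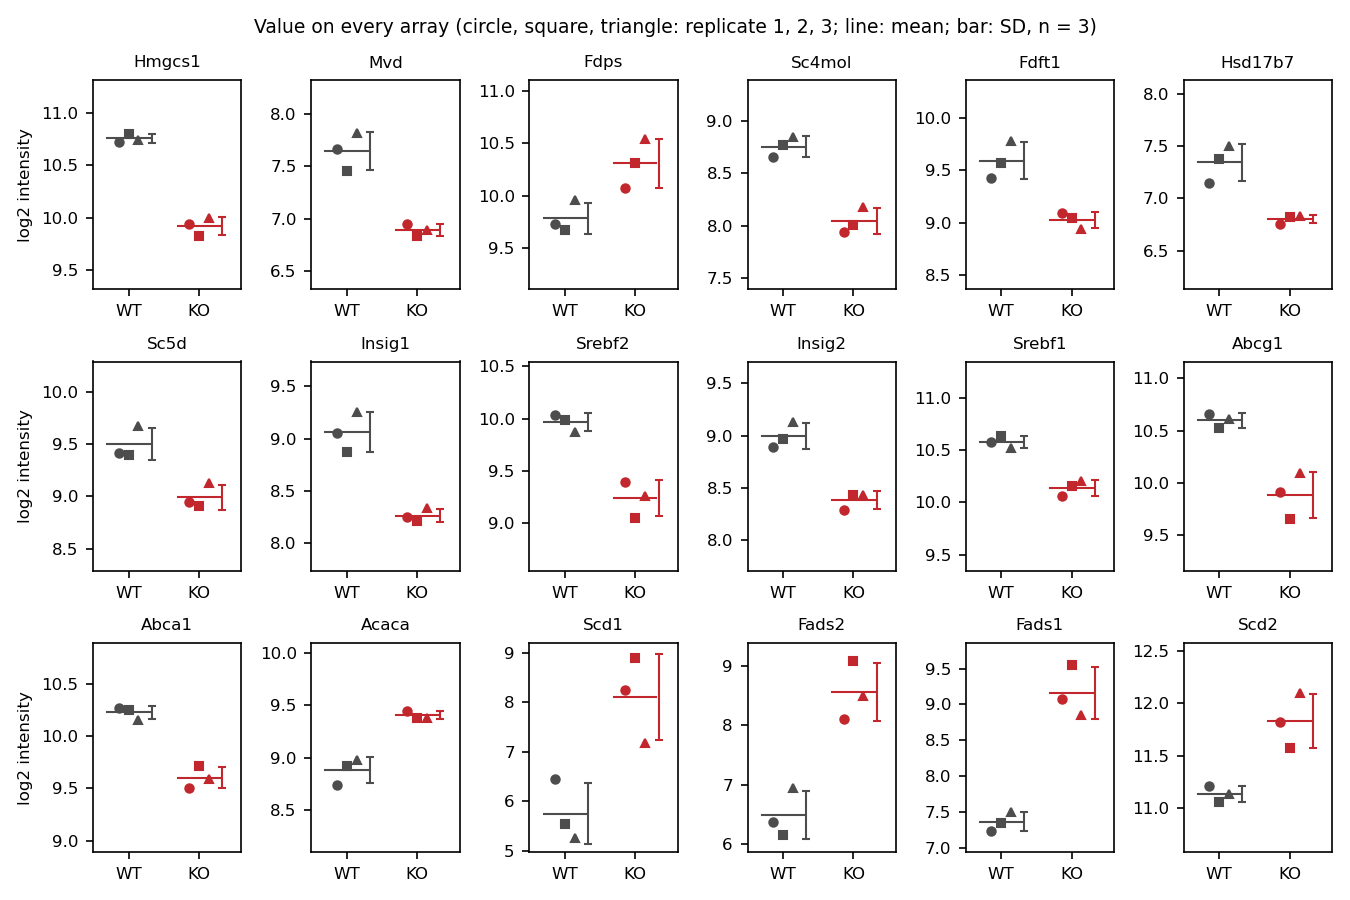
Log2 intensity on every array (vertical axis) of the 18 genes named in full, WT in grey and KO in red. Symbols are replicates 1, 2 and 3, lines are means and bars are SD (n = 3). Vertical axes span at least 2 units and differ between panels. The KO values of Hmgcs1 (9.83 to 10.00) lie below its WT values (10.73 to 10.80), and those of Fads1 (8.85 to 9.56) lie above its WT values (7.24 to 7.51).

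Of the 3 genes that make palmitate from citrate, 1 rose and 2 did not pass the test. Acaca, acetyl-CoA carboxylase 1, which makes malonyl-CoA in the committed step, was 8.74, 8.92 and 8.98 in WT and 9.45, 9.38 and 9.38 in KO. The KO arrays lay close together and all above WT (0.52 ± 0.09, SE, n = 3 per group, limma adjusted p = 0.0051). A dim second Acaca probe set differed by -0.22 (adjusted p = 0.16), and with the mean of both the Acaca call was lost. Fasn, the fatty acid synthase, had overlapping values, 9.86, 9.67 and 9.78 in WT and 9.73, 9.69 and 10.05 in KO, with a difference of 0.05 and an interval of -0.23 to 0.33. Acly, which splits citrate into acetyl-CoA, differed by -0.16 (-0.37 to 0.06), although each of its KO values was under the lowest WT value. Under the control scaling Fasn was called higher (0.42, adjusted p = 0.039).

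Scd1, Fads2 and Fads1, which add double bonds, had the largest differences of the 33 genes. In the group of 6 genes of desaturation and elongation the 4 desaturases rose, Elovl5 fell and Elovl6 was not called. Scd1, a stearoyl-CoA desaturase that makes oleate, was dim in WT at 6.45, 5.53 and 5.26 and stood at 8.24, 8.90 and 7.18 in KO. The lowest KO array was above the highest WT array, and KO arrays were spread widely (5.13-fold, 2.36 ± 0.46, SE, n = 3 per group, limma adjusted p = 0.0078). A second Scd1 probe set rose by 1.02. Scd2, the stearoyl-CoA desaturase that was bright in both genotypes, went from 11.21, 11.06 and 11.13 in WT to 11.82, 11.58 and 12.10 in KO (1.62-fold, 0.70 ± 0.14, limma adjusted p = 0.0081). A second Scd2 probe set rose by 0.59, and a dim one did not pass the test (0.11).

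Fads1 and Fads2 encode the delta-5 and delta-6 desaturases that turn essential fatty acids into arachidonate and other polyunsaturated fatty acids. Fads2 was 6.37, 6.16 and 6.95 in WT and 8.10, 9.08 and 8.49 in KO. It rose 4.18-fold (2.06 ± 0.28, SE, n = 3 per group, limma adjusted p = 0.0016), and its 2 other probe sets rose by 1.21 and 1.48. Fads1 was 7.24, 7.35 and 7.51 in WT and 9.07, 9.56 and 8.85 in KO, a gap of more than 1 unit between the groups (3.47-fold, 1.80 ± 0.18, limma adjusted p = 0.00040). A dim Fads1 probe set differed by -0.07. Elovl5, which elongates the polyunsaturated products of these desaturases, fell by 0.65 from a bright 12.17 ± 0.01 (SD, n = 3) to 11.52 ± 0.22 (limma adjusted p = 0.0062). Elovl6, which elongates palmitate to stearate, was higher on every KO array, with 8.22, 8.29 and 8.43 in WT and 8.59, 9.90 and 8.84 in KO. It did not pass the test (0.80, 0.07 to 1.53, adjusted p = 0.098) but was called without KO replicate 1 (1.06, adjusted p = 0.043) and, at 0.40, without KO replicate 2 (adjusted p = 0.041). The 4 desaturases rose under all 16 alternative settings, at their brightest probe sets or the mean of all, and leaving out 1 array moved Scd1 between 1.96 and 2.82 and Fads2 between 1.80 and 2.29.

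**Figure D4:**
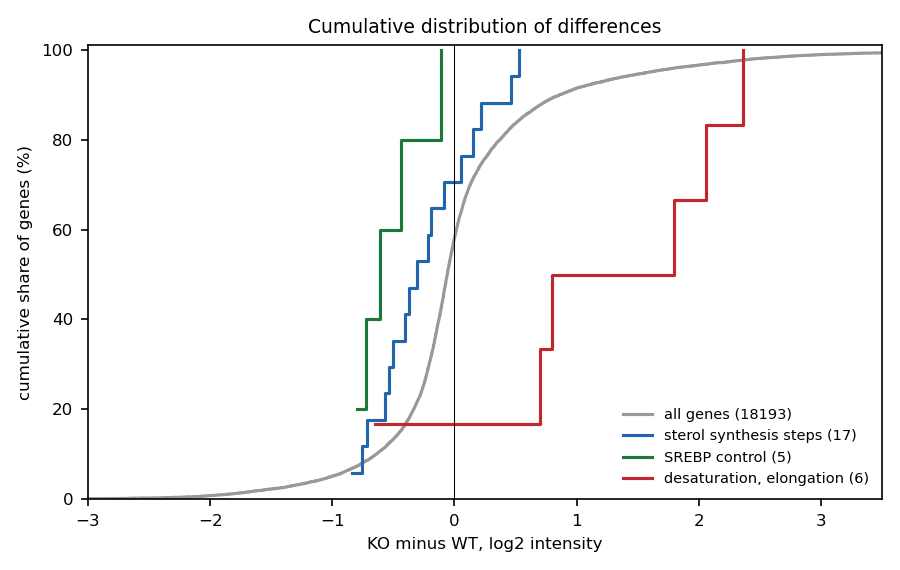
Cumulative share of genes (%, vertical axis) against the difference between KO and WT (log2 intensity) for all 18193 genes, 17 sterol synthesis steps, 5 genes of SREBP control and 6 genes of desaturation and elongation. The SREBP control genes lie between -0.80 and -0.11 and the median of desaturation and elongation genes is 1.30, against a median of -0.06 for all genes. Under scaling to the hybridization controls every curve moves to the right by 0.37.

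Within the KO group the members did not share 1 order of arrays. KO replicate 2 was the highest KO array for 14 of 33 genes, KO replicate 3 for 13 and KO replicate 1 for 6. Scd1, Fads1, Fads2 and Elovl6 were all highest in KO replicate 2, whereas Scd2 and Elovl5 were lowest there. That array also had the highest means of erythroid markers (11.02 against 10.39 and 9.91) and of dividing-cell markers (11.19 against 10.87 and 10.71). It had the lowest mean of T cell markers (9.57 against 10.82 and 10.98) and the highest mean of B cell markers (8.16 against 7.29 and 6.75). The B cell markers were split on it. Ebf1 (11.22 against 5.91 and 5.64), Cd79a, Cd79b, Cd22 and Pax5 were highest there. Ms4a1 (5.89 against 8.80 and 7.71) and Blk (5.58 against 6.91 and 6.23) were lowest there. KO replicate 1 was the lowest KO array for 8 of the 11 genes between squalene and sterol, and it held the highest neutrophil marker mean (12.70 against 10.43 and 10.99) as well as the lowest 18S level. Without KO replicate 1, 13 members fell and 8 rose. The counts were 15 and 7 without KO replicate 2. Shares of all genes in these fits are not given here. How often each KO array was highest or lowest over all genes is not given here. The orders above can therefore not be called particular to the members. Whether cell makeup sets these orders was not tested.

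Of 49 further genes of sterol and fatty acid metabolism 42 were measured, and 15 rose (35.7%) and 8 fell (19.0%), against 18.6% of all genes in either direction, with a median of 0.11. Under the control scaling 24 rose and 4 fell, against 42.8% and 7.22% of all genes. On the sterol side 4 of 16 rose and 5 fell. Scarb1, the receptor that takes cholesterol from high-density lipoprotein, stood at 8.05, 8.07 and 8.38 in WT and at 10.61, 10.61 and 10.56 in KO. The KO arrays were nearly equal, and Scarb1 rose 5.37-fold (2.43 ± 0.11, SE, n = 3 per group, limma adjusted p = 2.3e-05), as did its 2 other probe sets. Mylip, a liver X receptor target that encodes a ubiquitin ligase, fell from 11.05, 11.29 and 11.17 in WT to 9.82, 9.86 and 9.99 in KO (-1.28 ± 0.10, limma adjusted p = 0.00013). Cyp27a1, the sterol 27-hydroxylase, was 5.36, 5.39 and 4.63 in WT and 6.45, 6.80 and 6.00 in KO (1.29 ± 0.26, limma adjusted p = 0.0091). Vldlr, a lipoprotein receptor, was 4.82, 4.58 and 4.72 in WT and 5.57, 5.55 and 5.58 in KO (0.86 ± 0.09, limma adjusted p = 0.00047). Both were below the array median in WT, so these differences may be understated. The other Vldlr probe sets, all dimmer, differed less, by 0.50 and 0.38 (called) and by 0.26, 0.04 and -0.06 (not called). A dimmer Cyp27a1 probe set differed by -0.10 and was not called. Genes that fell and were chosen after their values were seen were Lipa and Npc2 (-0.86 and -0.63) and Npc1 (-0.53), which release cholesterol from lysosomes, and Ggps1 (-0.58), which makes geranylgeranyl diphosphate. The 3 other Ggps1 probe sets fell by 1.44, 1.40 and 0.37. A second Lipa probe set fell by 0.75, and another was not called (-0.35). Further Npc2 probe sets fell by 0.76 and 0.92, and a dim one was not called (-0.29). Mbtps1, the protease that cleaves SREBPs first, differed by -0.01 at its brightest probe set and fell by 0.92 and 0.87 at 2 others.

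On the fatty acid side 11 of 26 rose and 3 fell. Acsl6, an acyl-CoA synthetase, was 5.91, 6.11 and 6.16 in WT and 8.80, 9.82 and 9.30 in KO. It rose 9.50-fold (3.25 ± 0.24, SE, n = 3 per group, limma adjusted p = 0.00011), the largest difference among the lipid genes measured. A dim second Acsl6 probe set rose by 0.30. Fabp5, a fatty acid-binding protein, went from 9.26, 9.18 and 9.52 in WT to 11.42, 11.56 and 11.58 in KO (2.21 ± 0.11, limma adjusted p = 3.4e-05). Fads3, a desaturase family member encoded beside Fads1 and Fads2, was 6.71, 5.93 and 6.04 in WT and 8.02, 9.01 and 8.28 in KO (2.21 ± 0.29, limma adjusted p = 0.0013). Scd3, a further stearoyl-CoA desaturase, chosen after its values were seen, was dim and lower on every KO array but did not pass the test (-0.34, -0.65 to -0.03, adjusted p = 0.094). A dimmer Scd3 probe set differed by 0.02 and was not called. Slc25a1, which exports citrate from mitochondria for acetyl-CoA in the cytosol, was 8.52, 8.57 and 8.69 in WT and 9.49, 10.26 and 9.44 in KO (1.13 ± 0.21, limma adjusted p = 0.0064). It was highest in KO replicate 2, like Acsl6 and Fads3. The 3 genes that fell, chosen after their values were seen, were Acss2, the acetyl-CoA synthetase of the cytosol and nucleus (-0.82), Lpin1, a phosphatidate phosphatase (-0.76), and Mlx, the partner of the carbohydrate-responsive factor ChREBP (-0.60).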

How the data were processed

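The authors deposited a table of log2 probe-set intensities made with RMA (version not given), per the submitters' processing notes, from biotin-labelled RNA amplified with oligo(dT) and random primers, per the labels' protocols. Genome build and probe annotation release are not given in the sources used here. Values were used as deposited. Of 45101 probe sets 64 array controls were left out and 45037 were tested in R 4.3.3 with limma 3.58.1 (lmFit, eBayes, genotype as the only term), with Benjamini-Hochberg adjustment over all of them. Rose and fell stand for an adjusted p below 0.05, and tests were two-sided. The platform annotation gave 1 gene for 34945 probe sets and several for 932, and 9160 were not listed. Sc4mol was matched through its current symbol. Probe sets of 6 members end in _s_at or _x_at, which can cross-hybridise. Since RMA carries no call of presence, the difference of a dim probe set may be understated, and 3 arrays per genotype limit the precision. Each array is a separate animal, since every preparation came from its own spleen.

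The members, the lists, the role groups and the tests were chosen with earlier results of these data known. Values by array were given for up to 4 called members of each role group, and for up to 4 called genes of each of the 2 further lists, taking the largest differences. Some further genes of these pathways are not reported here. Alternatives were a repeated quantile normalization, median centring, scaling to hybridization controls, leaving out probe sets below 5.77, trend with robust fitting, array weights, a replicate block, an adjusted p below 0.10, at least 1.5-fold, averaging over all probe sets of a gene, each other probe set, and leaving out each array. Promoter windows came from RefSeq (GRCm38.p6). Scripts were tested on simulated data.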

Additional observations from a re-analysis of the deposited data

How the results depend on the processing

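The 7 rises and 14 falls of the members stayed within 1.5 times under normalization repeated by quantiles, median centring, the filter on dim probe sets, trend with robust fitting, array weights, the mean of probe sets and an adjusted p below 0.10, and when each array was left out (5 to 8 rose, 13 to 15 fell, with a median between -0.30 and -0.17). Scaling to the hybridization controls gave 12 rises and 3 falls, a median of 0.15 in place of -0.22, and 24 rises and 4 falls of the further genes in place of 15 and 8. Over all genes 42.8% rose and 7.22% fell under that scaling. Requiring at least 1.5-fold left 4 rises and 9 falls of the members. For the alternatives other than the control scaling, shares of all genes are not given here. Their counts therefore have no background beside them. With the replicate number as a block 6 members rose and 13 fell, and 13 and 8 of the further genes, with the calls of Sqle and Dhcr7 lost. Deviations of arrays with equal replicate numbers from their group means correlated at 0.10, -0.24 and -0.20. With 3 arrays per genotype these values cannot tell whether equal numbers mark pairs. Among single genes the sign turned under the control scaling for Mvk (0.057), Lss (0.17), Tm7sf2 (0.15), Nsdhl (0.28), Scap (0.26) and Acly (0.21), which were not called in either setting. Leaving out 1 array turned it for Pmvk (-0.0074 to 0.25), Ebp (-0.022 to 0.14), Scap (-0.25 to 0.020) and Fasn (-0.063 to 0.12). Other probe sets had the opposite sign, without a call, for Fdps (-0.0075), Sc5d (0.084), Insig2 (0.20 and 0.14), Acaca (-0.22), Elovl6 (-0.050), Fads1 (-0.068), Cyp27a1 (-0.10), Vldlr (-0.060) and Scd3 (0.018). Of 43 other probe sets of the members 12 repeated a call, 17 lost it and 0 were called the opposite way. The cause was not tested for these changes. Small differences of dim probe sets could not be resolved with 3 arrays per genotype.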
